A study of Mus musculus with 30 samples.

Results

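Expression in the liver of wild-type (WT) mice given 10 mg/kg PFOS was compared with that of WT mice given 0 mg/kg, which uses 10 of the 30 arrays of the series. The 10 arrays were chosen by their labels, 5 at each dose, and 12156 genes were tested. A repeat described below leaves out 2 of the control arrays, which were picked by their values of Ppara and Cyp2b10 and not by label. Treated mice had received perfluorooctane sulfonate (PFOS, a fluorinated surfactant that persists in the body) as its potassium salt, in 0.5% Tween 20 and delivered by gavage on each of 7 days, and control mice were dosed at 0 mg/kg over the same days. All 10 mice are labeled as males aged 6 to 9 months of the wild-type strain 129S1/SvlmJ, and the left lobe of the liver of each mouse gave 1 Affymetrix mouse genome array. The Null mice used for comparison (129S4/SvJae-Pparatm1Gonz/J) lack PPARα in every tissue and came from another substrain, so that genotype and substrain cannot be told apart. Mice were kept 5 to a cage, and which mice shared a cage is not given in the sources used here. The comparison asks which transcripts PFOS alters in a liver that has PPARα.

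PPARα is a nuclear receptor that fatty acids and many fluorinated acids activate. Once activated, it pairs with RXR on DNA and raises transcription of genes that take up fatty acids and oxidize them in peroxisomes and mitochondria. Prolonged activation in rodents enlarges the liver and multiplies its peroxisomes. CAR and PXR, receptors that sense foreign compounds, and NRF2, a factor that senses oxidants, control other sets of hepatic genes, among them cytochromes P450 and glutathione transferases.

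Expression is given throughout on the log2 scale of Robust Multichip Average (RMA), on which a difference of 1 is a doubling, and levels are compared between arrays and never between genes. The 15 WT arrays, at 0, 3, and 10 mg/kg, had medians from 5.62 to 5.7. No pair of arrays held the same values, the closest pair correlating at 0.997. Albumin (Alb), the main plasma protein made by hepatocytes, stood at 14.42 in the controls and 14.39 in the treated mice, and 11 of 13 hepatocyte markers were measured, so the tissue carried the transcripts of liver.

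Of the control arrays, 2 stood apart from their label. Ppara itself gave 10.66, 10.64, 10.55, 8.53, and 8.63 in control replicates 1 to 5, and 10.53, 10.29, 10.96, 10.06, and 10.16 in the treated mice. Replicates 4 and 5 were thus below every other WT array, including those at 3 mg/kg (10.07 to 10.54), and inside the range of the Null mice at 10 mg/kg (8.43 to 9.35). The probe set gave a signal in all Null arrays, up to 9.66 at 0 mg/kg, so it does not separate an intact from a disrupted gene by presence alone. Cyp2b10, a cytochrome P450 induced through CAR, gave 8.23, 7.87, 8.30, 12.55, and 12.99 in the control arrays and 12.19 to 13.05 in the treated ones. On this measure control replicates 4 and 5 lay among the treated arrays. Null mice lay between 6.76 and 9.23 at 0 mg/kg and between 11.96 and 13.14 at 10 mg/kg, the latter range holding both arrays. These are called the 2 doubted arrays, and the main results below are given with and without them, in the second case against 3 control mice. A second value in brackets after a change or a count, or after the word without, leaves the 2 doubted arrays out.

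At 10 mg/kg the WT liver carried more of the transcripts that bring in, activate, and burn fatty acids. Of the 24 genes measured for mitochondrial β-oxidation, 19 rose (18 without the doubted arrays) and 0 fell, while 7.53% of all genes tested rose. Some transcripts for amino acid breakdown, the urea cycle, and proteins secreted into plasma were lower, with 5 of 8 urea cycle genes lower (4 without) against 5.54% of all genes tested. Cyp4a31, a fatty acid ω-hydroxylase, led the genes whose groups did not overlap, though its control signal was weak. In bulk liver, fewer cells of a type and less RNA per cell cannot be told apart.

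Across all genes tested, 915 rose (7.53%) and 674 fell (5.54%) at an adjusted p under 0.05, together 13.1%. Most changes were small, with a median of 0.42 among genes that rose and -0.42 among genes that fell, and 98 genes rose and 22 fell by at least 2-fold. The 5 treated arrays lay wholly on one side of the 5 controls for 579 of the risen and 318 of the fallen genes, where 9.35% of all genes tested did so. Shifting each array to the same median gave 964 genes higher and 430 lower, so the balance between rises and falls depends on the scaling. Without the 2 doubted arrays 1675 genes were higher (13.8%) and 1733 lower (14.3%). Counts of list members below are to be read beside these shares, which were larger without the doubted arrays. Of the 1589 genes called with all arrays, 1481 were called in the same direction without the doubted arrays, and 0 were called in opposite directions. The totals also moved by more than 1.5 times when other arrays were left out. They were 499 higher and 267 lower without control replicate 1, 525 and 263 without control replicate 2, and 557 and 271 without control replicate 3. Leaving out treated replicate 1, 2, or 5 gave 504 and 276, 493 and 346, and 585 and 299, and leaving out control replicate 5 gave 1194 lower. A gene described below as risen or fallen kept its call without any 1 of the 10 arrays unless the loss is stated.

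Cyp4a31 stood in the controls at 4.83, 4.39, 3.77, 4.09, and 4.42 and reached 9.12, 9.24, 9.87, 8.78, and 8.68 in the treated mice. Every treated mouse stood above every control, the doubted ones included. The rise was 4.84 (SE 0.213, adjusted p = 1.99e-09), and 4.81 without the doubted arrays. All 5 controls lay under 5.65, the level below which signals were counted as weak, so the size of the rise is uncertain. Its relative Cyp4a14 gave 10.28, 11.11, 8.68, 8.64, and 9.76 in the controls and sat between 13.24 and 13.38 in all 5 treated mice (change 3.62, adjusted p = 1.17e-05, and 3.29 without). Cyp4a genes are near-identical in sequence, so that a probe set for one of them may also read others.

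Vnn1, a pantetheinase that recycles the vitamin part of coenzyme A, rose by 4.34 (SE 0.468, adjusted p = 3.34e-05). Its controls gave 5.64, 5.55, 5.39, 3.36, and 3.64, the 2 doubted arrays being the lowest, and its treated arrays gave 9.86, 9.11, 9.91, 7.86, and 8.55. No treated mouse reached down to the controls, and the rise was 3.53 without the doubted arrays. Mogat1, which joins a fatty acid to monoacylglycerol on the way to triglyceride, rose by 3.33 (SE 0.287, adjusted p = 5.27e-06). It gave 5.44, 5.18, 5.34, 4.84, and 5.53 in the controls and 9.04, 9.21, 7.86, 8.02, and 8.86 in the treated mice. The doubted arrays here were like the other controls, and the rise was 3.28 without them. For Vnn1 and Mogat1 too, all 5 controls lay under 5.65, and the size of the rise is uncertain.

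Further leading rises were of genes with varied roles. Retsat, a retinol saturase, rose by 2.74 (2.76 without the doubted arrays), and Amn, a partner of the vitamin B12 receptor, by 2.69 (3.13). Krt23, a keratin, rose by 2.66 (2.88), Chrna2, a subunit of the acetylcholine receptor, by 2.66 (2.12), and Cbr3, a carbonyl reductase, by 2.40 (2.75). For Krt23 the controls spanned 4.61 to 6.18 and the treated arrays 7.15 to 8.37. Krt23 was also the single member to rise among the 5 cholangiocyte markers measured, of which 0 fell (1 without the doubted arrays).

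**Figure D1:**
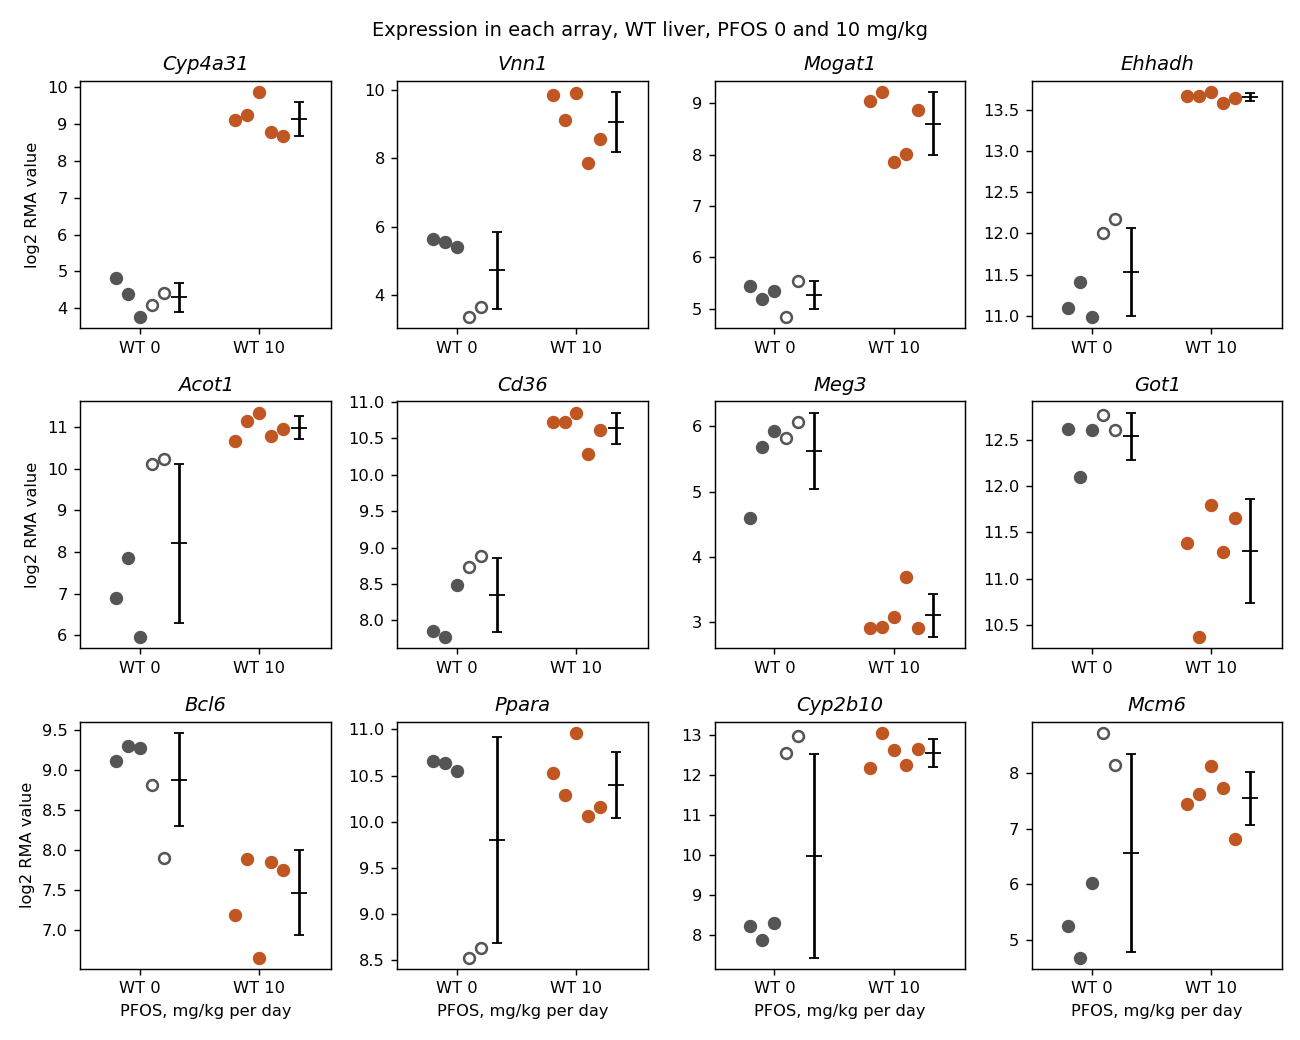
Expression of 12 genes in each WT array, with the PFOS dose on the horizontal axis and the log2 RMA value on the vertical axis. Filled gray points are control replicates 1 to 3, open gray points the 2 doubted control arrays, and orange points the treated arrays, and the black mark with its bar is the mean with SD (n = 5). For Cyp4a31 and Mogat1 all 10 points split by dose, whereas for Cyp2b10 the open points lie at 12.55 and 12.99, among the treated arrays.

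Enzymes of mitochondrial β-oxidation, which cut fatty acids into acetyl-CoA, rose in most members with and without the doubted arrays. Of 28 genes listed 24 were measured, 19 rose and 0 fell, with a median change of 0.48 beside -0.00414 over all genes tested. For 18 of the 24 the treated arrays lay wholly on one side of the controls. Slc25a20, the carrier that moves acylcarnitines into mitochondria, gave 10.79, 10.84, 10.57, 10.12, and 10.18 in the controls and 11.59, 11.68, 11.72, 11.40, and 11.55 in the treated mice (change 1.09, adjusted p = 5.41e-05, and 0.86 without). Cpt2, which frees the acyl group on the inner side, rose by 1.02 (adjusted p = 0.000151, and 0.77 without). Eci1 and Decr1, which handle the double bonds of unsaturated fatty acids, rose by 1.25 and 1.05 (adjusted p = 3.17e-07 for each, and 1.19 and 1.13 without). Without the doubted arrays 18 of the 24 rose with a median of 0.50, and with any 1 array left out the count stayed between 14 and 20. The mean of the 24 genes per array was 10.76 to 10.99 in the controls and 11.34 to 11.44 in the treated mice, so the groups did not overlap.

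In peroxisomes, which shorten very long fatty acids, 11 of the 20 β-oxidation genes measured rose and 0 fell (median 0.36), and without the doubted arrays 10 rose and 1 fell. Ehhadh, the bifunctional enzyme of this pathway, gave 11.10, 11.41, 10.99, 12.00, and 12.17 in the controls, the doubted arrays being the highest. In the treated mice it reached 13.66, 13.67, 13.71, 13.58, and 13.64, and the rise was 2.12 (SE 0.178, adjusted p = 4.26e-06) with all arrays and 2.48 without the doubted ones. Crat, which makes short acylcarnitines for export, rose by 1.67 (2.13 without), and Ech1, an isomerase of dienoyl-CoA, by 1.31 (1.20). Decr2, the peroxisomal dienoyl-CoA reductase, depended more on the doubted arrays, with a rise of 1.5 that became 0.75 without them (adjusted p = 0.0138 and 0.000355). Its 5 control arrays gave 10.93, 10.64, 10.67, 8.89, and 8.84.

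Of 20 peroxins and peroxisomal membrane proteins measured, 9 rose and 0 fell (median 0.27). Pex11a, which divides peroxisomes, changed most, from 10.50, 10.48, 10.23, 10.00, and 10.00 to 11.75, 12.04, 11.96, 11.63, and 11.75 (change 1.58, SE 0.106, adjusted p = 3.17e-07, and 1.42 without). Pex19 and Pex3, which place membrane proteins in the peroxisome, rose by 0.53 and 0.45 (0.61 and 0.57). The count of this list depended on single arrays and fell to 4 without control replicate 1 or treated replicate 1, 2, or 5, and to 5 without control replicate 2 or 3. It was 11 without the doubted arrays.

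Acyl-CoA thioesterases, which release free fatty acids from coenzyme A, rose in 7 of 11 genes measured and fell in 0 (8 and 1 without the doubted arrays). Acot1, the cytosolic form, gave 6.90, 7.85, 5.96, 10.11, and 10.23 in the controls and 10.65, 11.15, 11.34, 10.79, and 10.96 in the treated mice. The doubted arrays nearly reached the treated range, so that the rise was 2.77 (SE 0.616, adjusted p = 0.0125) with them and 4.08 (SE 0.287, adjusted p = 7.56e-07) without. Acot2 in mitochondria and Acot3 in peroxisomes rose by 2.87 and 2.68 (3.55 and 3.47 without). Neighboring Acot genes are close copies, and their probe sets may share signal. Among 29 genes of coenzyme A and NAD turnover 10 rose and 0 fell (11 and 3 without the doubted arrays), and Ppcs, an enzyme of coenzyme A synthesis, rose by 0.73 (0.69).

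Lipid storage genes moved in the same direction. Of 17 lipid droplet proteins and lipases measured, 9 rose and 0 fell (median 0.57), and 11 rose and 0 fell without the doubted arrays. Hsd17b11, a droplet-bound dehydrogenase, gave 9.91, 10.55, 10.09, 9.38, and 9.65 in the controls and 11.84, 11.97, 11.80, 11.78, and 11.96 in the treated mice (change 1.96, adjusted p = 5.6e-06, and 1.69 without). Fitm1, which helps droplets bud, rose by 2.14 (1.69 without the doubted arrays). G0s2, an inhibitor of triglyceride lipase, rose by 1.24 (0.92). Mgll, which splits monoacylglycerol, rose by 1.09 (0.97), with 3 of its 4 probe sets called and the other at -0.12. Plin2, the coat protein of droplets in hepatocytes, gave 12.54, 13.13, 12.82, 12.10, and 12.13 in the controls and 13.34, 13.53, 13.20, 13.29, and 13.26 in the treated mice. Its groups did not overlap, but the doubted arrays were the lowest of the controls, and the rise of 0.78 (adjusted p = 0.00798) became 0.49 (adjusted p = 0.0106) without them.

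Of 18 genes of fatty acid uptake and binding 8 rose and 0 fell (6 and 1 without the doubted arrays), and 5 rose without control replicate 3. Cd36, which carries fatty acids across the plasma membrane, gave 7.86, 7.77, 8.48, 8.74, and 8.89 in the controls and 10.72, 10.72, 10.85, 10.28, and 10.61 in the treated mice. All treated mice exceeded all controls, by 2.29 on average (SE 0.236, adjusted p = 2.68e-05), and by 2.60 without the doubted arrays. Vldlr, a receptor for triglyceride-rich lipoproteins, rose by 0.88 (1.16 without). Slc22a5, which imports the carnitine needed for β-oxidation, rose by 1.48 (1.66 without). Fabp1, the liver fatty acid binding protein, is near the top of the array scale and rose by 0.31 (adjusted p = 0.0097, and 0.29 without), from 13.74 to 14.02 in the controls to 14.18 to 14.22 in the treated mice.

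Transcripts for the synthesis of fatty acids rose in part. Of 26 genes of lipogenesis and elongation 10 rose and 2 fell (13 and 1 without the doubted arrays), and 6 rose without control replicate 1, 2, or 3 or treated replicate 1 or 5. Fasn, fatty acid synthase, gave 10.00, 9.73, 10.15, 10.20, and 10.34 in the controls and 11.05, 11.07, 10.96, 10.98, and 11.18 in the treated mice (change 0.96, adjusted p = 0.000244, and 1.08 without). Me1, malic enzyme, rose by 1.02 (1.15) and Scd1, stearoyl-CoA desaturase, by 1.24 (1.64), the latter with 1 control (replicate 2, 10.48) well below the others. Pdk4, the kinase that keeps pyruvate out of the citric acid cycle, rose by 1.63 (2.04 without the doubted arrays). The 2 lipogenic genes that fell, Mlxipl and Pklr, are the sugar-sensing factor ChREBP and the pyruvate kinase it controls, at -0.62 and -0.47 (-0.89 and -0.45, the latter not called, adjusted p = 0.0723). Mlxipl was not called without control replicate 1, 2, or 3 or treated replicate 1, 2, or 5 (adjusted p up to 0.111), and Pklr was not called when any 1 of the 10 arrays was left out (adjusted p up to 0.123).

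Promoters of these genes were searched because PPARα with RXR binds repeats of a short hexamer in the DNA beside its targets. RefSeq sequences for the 250 bases before the transcript start (GRCm38.p6) were at hand for 9811 of the 12156 genes tested. The motif AGGNCANAGGNCA, 2 copies of the hexamer separated by 1 base, was searched on both strands. It was found in 0.338% of all 32851 promoters of the same length. The next figures count genes, each with a match if any of its promoters held one. By gene it was found in 0.398% of those tested, in 2 of 760 that rose (Fabp1 among them), and in 5 of 557 that fell. Of the 21 mitochondrial β-oxidation genes with a promoter 0 held it, as did 0 of 17 genes of peroxisomal β-oxidation and 0 of 8 genes among the leading rises. At 0.398% of genes tested, sets this small would hold few or no matches in any case, so nothing is read from these counts. The promoters shown are that of Fabp1 (chr6:71199629-71199878, plus strand) with its match in capitals, read as the reverse complement of the motif and starting 67 bases before the transcript start, and that of Mogat1 (chr1:78510810-78511059, plus strand), a gene with a far larger rise and no match. A match is a row of letters and not a measured binding site, and enhancers lie outside this window.
Fabp1: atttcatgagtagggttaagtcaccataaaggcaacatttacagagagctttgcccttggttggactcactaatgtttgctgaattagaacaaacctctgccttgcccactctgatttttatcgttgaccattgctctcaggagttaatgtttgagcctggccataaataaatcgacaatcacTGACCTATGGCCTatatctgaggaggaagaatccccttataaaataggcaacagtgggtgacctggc
Mogat1: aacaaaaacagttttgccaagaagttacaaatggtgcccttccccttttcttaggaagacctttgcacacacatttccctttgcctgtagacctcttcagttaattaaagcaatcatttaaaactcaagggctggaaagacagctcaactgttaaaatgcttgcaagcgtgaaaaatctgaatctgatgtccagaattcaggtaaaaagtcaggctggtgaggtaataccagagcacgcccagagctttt

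The motif was thus rare among genes of both directions of change. The single hexamer AGGTCA, by comparison, was present in 14% of all promoters. By gene it was present in 14% of those tested, in 14.5% of those that rose, and in 12.2% of those that fell.

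Among the genes that fell without overlap between groups, Meg3, an imprinted noncoding RNA, came first by size. It gave 4.60, 5.69, 5.93, 5.82, and 6.07 in the controls and 2.90, 2.92, 3.08, 3.68, and 2.91 in the treated mice. The change was -2.53 (SE 0.283, adjusted p = 5.02e-05), and -2.31 without the doubted arrays. All treated values lay under 5.65, so the size of the fall is uncertain. Of its 9 probe sets 5 were called lower (-2.53 to -1.55) and 4 were not called (-0.43 to -0.12). Rian, a noncoding RNA of the same imprinted cluster, changed by -1.37 (adjusted p = 0.00608), and by -0.93 without the doubted arrays. Mirg, the third of the cluster, changed by -0.84 (adjusted p = 0.0215), but was not called without treated replicate 2 (adjusted p = 0.0568) or without the doubted arrays (adjusted p = 0.0605). Of 14 imprinted transcripts measured, these 3 fell and 2 rose, and 3 fell and 3 rose without the doubted arrays. Peg3, a zinc finger protein, rose by 1.22 (1.31), and Impact, a regulator of translation, by 0.77 (0.98). For Impact 1 of 3 probe sets was called, and the other 2 changed by -0.02 and 0.05.

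Genes of amino acid breakdown were mostly lower where they changed, with 19 of 63 measured lower and 3 higher (median -0.14), and 25 and 4 without the doubted arrays. Got1, the cytosolic aspartate aminotransferase, gave 12.61, 12.10, 12.60, 12.77, and 12.60 in the controls and 11.38, 10.37, 11.80, 11.29, and 11.66 in the treated mice. It was lower in every treated mouse (change -1.24, SE 0.218, adjusted p = 0.00277), and the change was -1.14 without the doubted arrays. Prodh, which opens proline breakdown, changed by -0.72 (adjusted p = 0.00257, and -0.78 without). Csad, which makes hypotaurine from cysteine sulfinate, went the other way and rose by 1.37 (adjusted p = 0.00911, and 1.65 without). The mean of the 63 genes per array was 10.98 to 11.04 in the controls and 10.79 to 10.93 in the treated mice. The count that fell stayed between 13 and 22 with any 1 array left out.

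The urea cycle, which turns the nitrogen of amino acids into urea, fell in 5 of 8 genes measured and rose in 0 (median -0.30). Cps1, its first enzyme, gave 13.62, 13.62, 13.59, 13.41, and 13.50 in the controls and 13.18, 13.18, 13.32, 13.31, and 13.31 in the treated mice (change -0.29, adjusted p = 0.0106, and -0.35 without). The difference was small, but the groups did not overlap. Otc, the next enzyme, changed by -0.32 (adjusted p = 0.00743, and -0.35 without). The count was 3 without treated replicate 2 and 4 without the doubted arrays. Of 29 genes of glucose metabolism 7 fell and 3 rose, and 11 fell and 5 rose without the doubted arrays. The number lower was 4 with arrays shifted to the same median, 2, 3, and 3 without control replicate 1, 2, or 3, and 2, 2, 4, and 3 without treated replicate 1, 2, 4, or 5, and the number higher was 1 without treated replicate 1. Pck1, a control point of glucose synthesis, was among those that fell (-0.80, and -0.90 without), but its call was lost without control replicate 1 or 3 or treated replicate 1, 2, 4, or 5 (adjusted p up to 0.083).

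Some secreted plasma proteins made by hepatocytes were lower. Of 27 coagulation genes 9 fell and 0 rose (median -0.20), and of 20 complement genes 5 fell and 0 rose (median -0.28). Among 40 acute-phase and other plasma proteins 6 fell and 1 rose (9 and 1 without the doubted arrays), and 33 were not called. Coagulation factor XI (F11) gave 9.93, 10.02, 10.45, 9.01, and 9.54 in the controls and 8.82, 8.65, 8.62, 8.96, and 8.60 in the treated mice (change -1.06, SE 0.205, adjusted p = 0.00539). The lowest control, a doubted array, lay just above the highest treated mouse, and the change was -1.40 without the doubted arrays. Factor VII (F7) changed by -0.54 (adjusted p = 0.00151, and -0.60 without). C8b and C9, both parts of the complement pore that pierces bacteria, changed by -0.68 and -0.66 (-0.79 and -0.82), and C1s1, a protease that starts the cascade, by -0.70 (-0.82). Without the doubted arrays 16 coagulation and 12 complement genes fell, while the share of all genes tested that fell went from 5.54% to 14.3%. Single arrays moved these counts between 4 and 15 for coagulation and between 3 and 11 for complement, and the complement count was 3 when arrays were shifted to the same median. Serpina7, the thyroxine-binding globulin, rose by 1.72 (1.77 without).

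**Figure D2:**
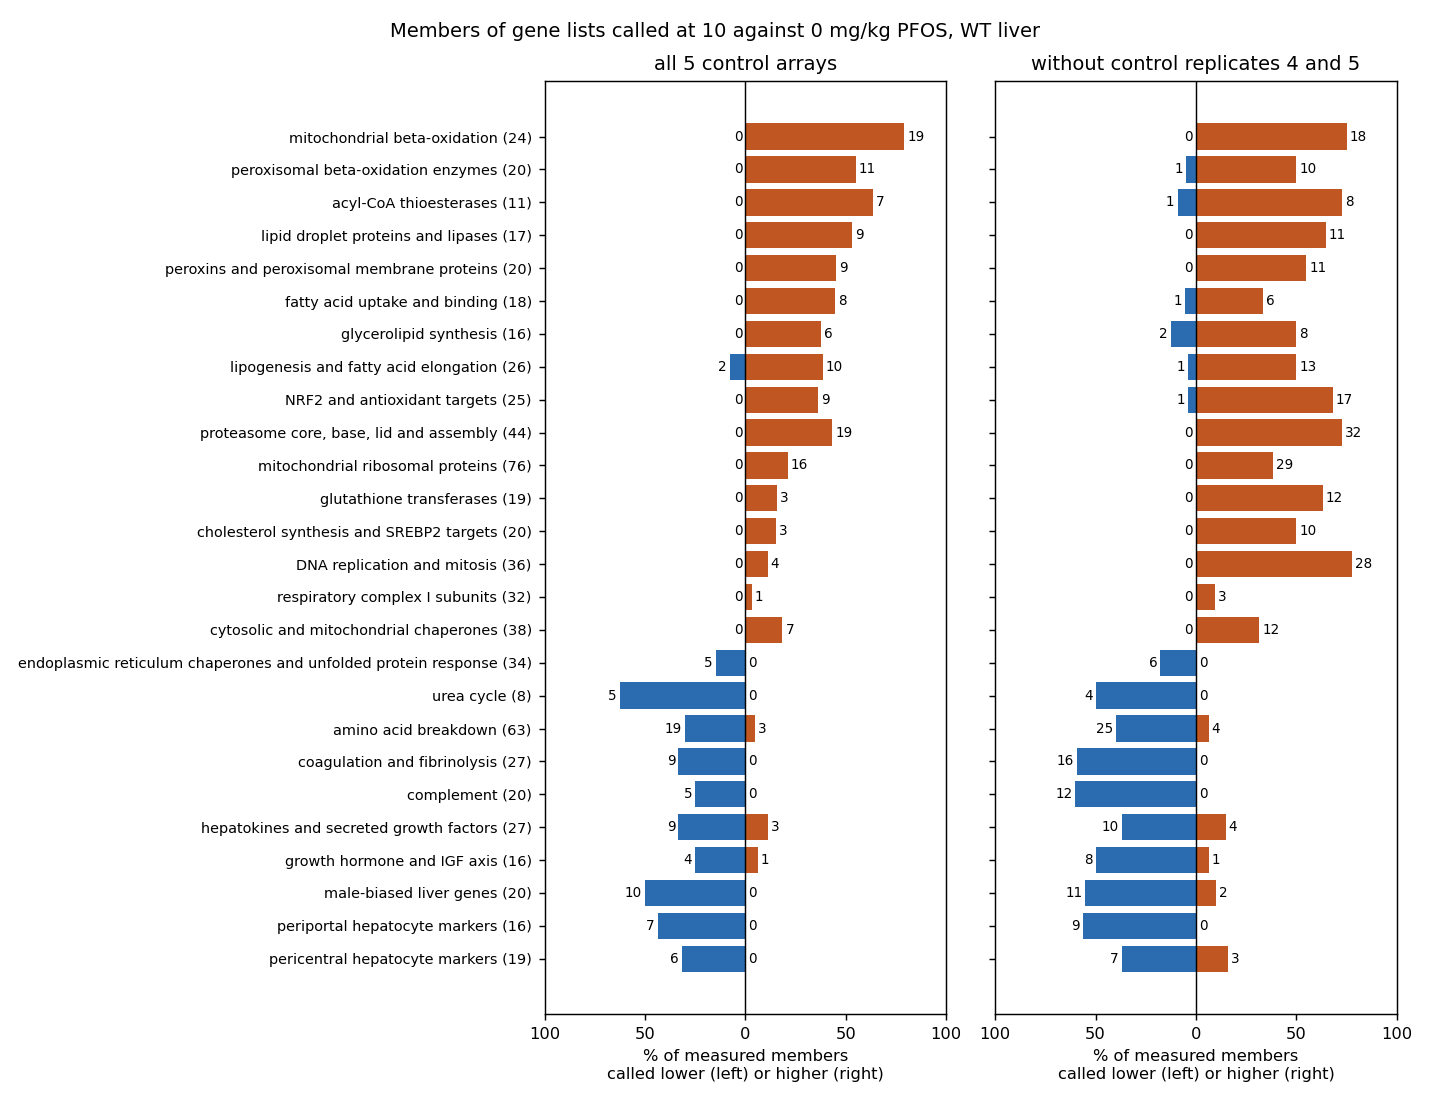
Percentage of the measured members of 26 gene lists called higher (orange, to the right) or lower (blue, to the left) at 10 against 0 mg/kg in WT liver, with all 5 controls in the left panel and without control replicates 4 and 5 in the right panel. Numbers beside bars count genes and numbers in brackets give the members measured. For mitochondrial β-oxidation 19 and 18 of 24 rose in the 2 panels, whereas for DNA replication the count went from 4 to 28 of 36.

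Genes that growth hormone keeps at male levels in liver fell in 10 of 20 measured and rose in 0 (median -0.48), and in 11 and 2 without the doubted arrays. Hsd3b5, a steroid dehydrogenase of the male liver, gave 11.33, 11.97, 11.51, 8.18, and 10.68 in the controls and 6.04, 5.37, 6.53, 9.24, and 5.88 in the treated mice. The groups overlapped through 1 doubted control and treated replicate 4, yet the change of -4.12 (SE 0.769, adjusted p = 0.00417) was called and was -4.99 without the doubted arrays. Cyp7b1, a male-biased sterol hydroxylase, changed by -0.96 and Slco1a1, an anion uptake carrier, by -1.22 (-1.33 and -1.42 without). Treated replicate 4 had the highest value of the treated mice for all of these 3 genes. Igf1, the growth factor the liver makes under growth hormone, changed by -0.46 (adjusted p = 0.0118, and -0.64 without). Of its 4 probe sets 2 were called lower and 2 were not called (-1.20 and -1.16). Bcl6, a repressor of female-biased genes, changed by -1.41 (adjusted p = 0.023, and -1.76 without the doubted arrays), but lost its call without control replicate 1, 2, or 3 or treated replicate 1 (adjusted p up to 0.0607). Of 15 female-biased genes 5 rose and 2 fell, with the same counts without the doubted arrays. Those that rose were Hao2, a hydroxyacid oxidase (1.74, and 1.95 without), Acot4 (1.29, and 1.81), and Acot3, Cd36, and Vldlr, described above. The count lower was 1 with arrays shifted to the same median, 0 without control replicate 1 or treated replicate 1 or 5, and 1 without control replicate 2 or 3 or treated replicate 2 or 4.

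Of 36 nuclear receptors and coregulators 3 fell and 1 rose (9 and 4 without the doubted arrays), and 32 were not called. Single genes of other roles were among those that fell. Egfr, the receptor for epidermal growth factor, gave 11.26, 11.12, 11.36, 10.85, and 10.77 in the controls and 10.41, 10.06, 10.54, 10.07, and 9.75 in the treated mice (change -0.90, adjusted p = 0.00378, and -1.08 without). Of its 6 probe sets 2 were called lower and 4 were not called (-1.35 to -0.03). Lifr, the receptor for leukemia inhibitory factor, changed by -1.05 (-1.47 without the doubted arrays). Enho, which encodes the secreted peptide adropin, changed by -1.11 (-1.52), and Ppargc1a, a coactivator of mitochondrial genes, by -1.01 (-1.16). For Enho 2 of 3 probe sets were called lower, and the other changed by 0.03. Jun, a transcription factor of immediate responses, rose by 1.48 (1.63) and Gadd45b, a growth and stress gene, by 1.43 (1.84).

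Markers of both ends of the hepatic lobule were among the genes that fell. Of 16 periportal markers 7 fell and 0 rose (median -0.33), and 9 and 0 without the doubted arrays. Of 19 pericentral markers 6 fell and 0 rose (median -0.12), whereas 7 fell and 3 rose without the doubted arrays, and 2 rose without control replicate 5 alone. Among the pericentral ones, Slc1a2, a glutamate transporter, changed by -0.90 (-0.93), Gulo, the last enzyme of vitamin C synthesis, by -0.82 (-1.02), and Lgr5, a receptor of Wnt-dependent cells, by -0.66 (-0.78). For Slc1a2 1 of 3 probe sets was called, and the other 2 changed by -0.36 and -0.16. Glul, glutamine synthetase, which marks the cells next to the central vein, changed by -0.21 and was not called (adjusted p = 0.218), but was lower without the doubted arrays (-0.35, adjusted p = 0.0346). Both counts were 4 with arrays shifted to the same median. The periportal count was 3, 4, and 3 without control replicate 1, 2, or 3 and 3, 2, 4, and 3 without treated replicate 1, 2, 4, or 5. The bile acid genes were mixed, with 1 rise and 3 falls among 16 of synthesis (3 and 4 without the doubted arrays). Cyp7a1, which sets the rate of that synthesis, ranged from 6.44 to 10.68 in the controls and from 7.40 to 9.50 in the treated mice, and was not called with all arrays (0.0138, SE 0.69) or without the doubted ones (1.04, SE 0.635). Abcb11, the bile salt export pump, changed by -0.39 (adjusted p = 0.00317, and -0.44 without).

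For another set of genes the answer depended on whether the 2 doubted arrays were counted. Cyp2c55, a P450 induced through CAR, gave 6.57, 6.55, 6.55, 12.16, and 12.40 in the controls and 12.02, 12.08, 11.47, 11.85, and 12.14 in the treated mice. The doubted arrays were above every treated array, so that the change was 3.07 (SE 1.01, adjusted p = 0.0637) with them and 5.35 (SE 0.225, adjusted p = 3.25e-09) without. Cyp2b10 changed by 2.57 (adjusted p = 0.0568) and by 4.42 without the doubted arrays. Those arrays were doubted in part for their high Cyp2b10, so the second value follows from that choice and nothing is read from it. Of 33 P450 genes of families 1 to 3, 1 rose and 4 fell with all arrays, and 10 rose and 5 fell without the doubted arrays. Over all genes tested 7.53% rose and 5.54% fell with all arrays, and 13.8% and 14.3% without the doubted ones. Cyp3a11, which PXR induces, was near the top of the scale at 13.60 to 13.91 in all 10 arrays and was not called in either case.

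Glutathione transferases, which attach glutathione to reactive compounds, rose in 3 of 19 genes with all arrays and in 12 without the doubted arrays, with medians of 0.54 and 0.87. The count was also 6 without control replicate 4 alone and 12 without control replicate 5 alone. Gstm3 gave 11.45, 11.68, 12.38, 13.99, and 14.00 in the controls and 13.72 to 14.08 in the treated mice, a change of 1.29 (adjusted p = 0.052) that became 2.15 (adjusted p = 2.09e-06). Of 25 NRF2 targets 9 rose with all arrays and 17 without the doubted arrays, and 0 and 1 fell. The count that rose was 2, 3, and 2 without control replicate 1, 2, or 3, 15 without control replicate 5, and 2, 2, and 3 without treated replicate 1, 2, or 5. Nqo1, a quinone reductase, changed by 1.01 (adjusted p = 0.0342) and Srxn1, which repairs peroxiredoxins, by 1.26 (adjusted p = 0.0239). Each lost its call without control replicate 1, 2, or 3 or treated replicate 1, 2, or 5 (adjusted p up to 0.0892 and 0.0668), and the rises were 1.58 and 1.91 without the doubted arrays. Abcc4, an export pump, rose in both cases, by 2.16 and 2.87.

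Genes of DNA replication showed the widest gap. Of 36 genes of replication and mitosis 4 rose with all arrays and 28 without the doubted arrays, and 0 fell either way. Mcm6, a subunit of the replicative helicase, gave 5.25, 4.68, 6.02, 8.72, and 8.15 in the controls and 7.45, 7.62, 8.12, 7.73, and 6.82 in the treated mice. Its change was 0.98 (adjusted p = 0.328) with all arrays and 2.23 (adjusted p = 0.00127) without the doubted ones, which lay above every treated mouse. Leaving out control replicate 4 alone gave 15 genes and control replicate 5 alone 11, and leaving out control replicate 1 or 2 or treated replicate 1 or 2 gave 0. The mean of the 36 genes per array was 6.02 to 6.34 in control replicates 1 to 3, 7.26 and 7.05 in the doubted arrays, and 6.72 to 7.13 in the treated mice. Dio1, the deiodinase that activates thyroid hormone, gave 10.54, 9.98, 10.64, 5.13, and 5.57 in the controls and 7.64 to 8.92 in the treated mice. All treated mice lay between the 2 sets of controls, so that the change was -0.31 (adjusted p = 0.865) with all arrays and -2.33 (adjusted p = 0.000558) without the doubted ones. Whether these 2 arrays came from mice other than their label says was not tested.

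**Figure D3:**
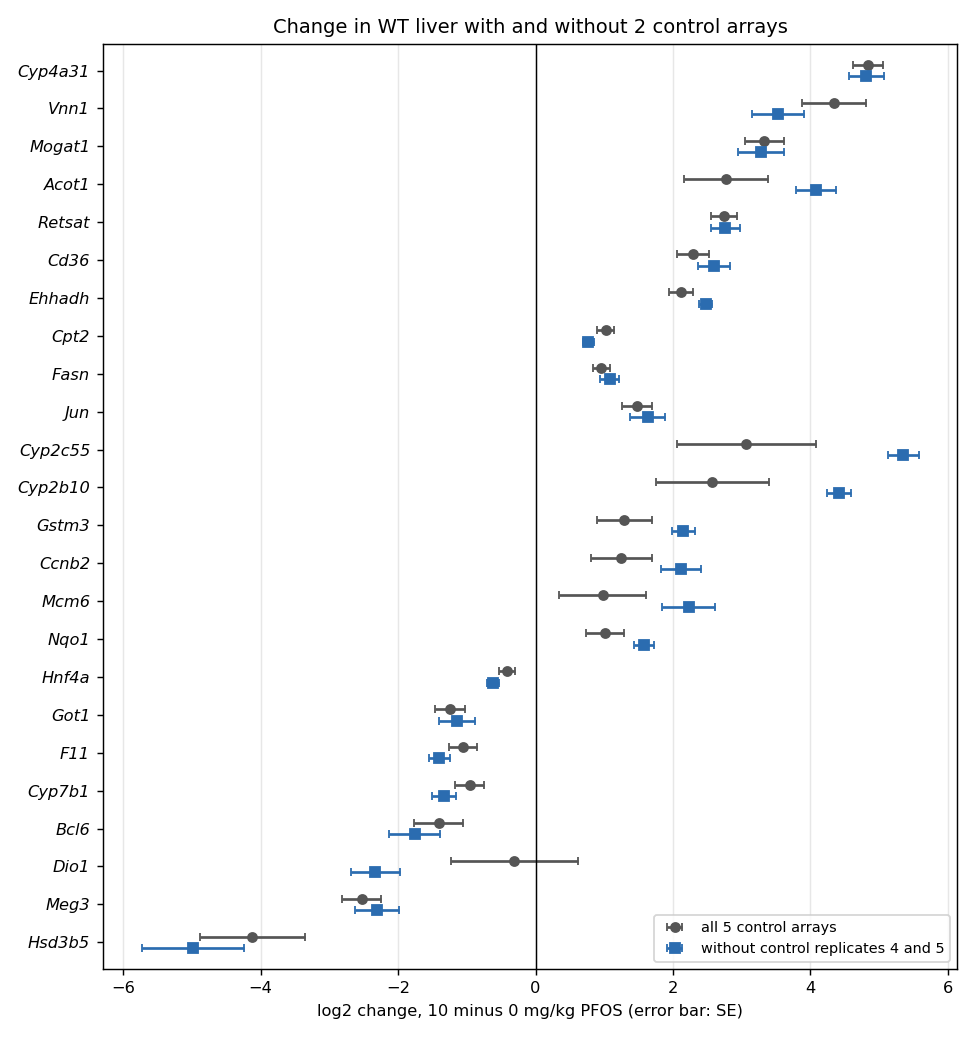
Change in 24 genes at 10 against 0 mg/kg PFOS in WT liver, on the log2 scale, with SE as error bar. Gray circles use all 5 controls and blue squares leave out control replicates 4 and 5, and for Cyp4a31 the 2 estimates are 4.84 and 4.81 while for Dio1 they are -0.31 and -2.33.

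Cholesterol synthesis lay between these patterns, with 3 of 20 genes higher and 0 lower with all arrays and 10 and 0 without the doubted ones, and the count ranged from 0 to 6 with single arrays left out. Mvd, which makes isopentenyl diphosphate, changed by 1.05 (adjusted p = 0.0278, and 1.29 without), and lost its call without any 1 array other than control replicates 4 and 5 and treated replicate 3 (adjusted p up to 0.0692). Control replicate 2 was the lowest of the controls in the mean of this list, at 9.10 beside 9.93 to 10.29 in the others.

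Transcripts for protein turnover rose in part. Of 44 proteasome genes 19 rose and 0 fell (median 0.27), and 32 rose without the doubted arrays. Psmd4, a ubiquitin receptor of the proteasome, gave 11.17, 11.33, 11.24, 11.71, and 11.59 in the controls and 11.89, 11.98, 11.76, 11.82, and 11.94 in the treated mice. The groups were apart, with the doubted arrays closest to the treated ones. The rise was 0.47 (adjusted p = 0.00603), or 0.63 without the doubted arrays. For Psmd4 2 of 3 probe sets were called, and the other changed by 0.06. Psmb8, which replaces a core subunit in the immunoproteasome, changed by -0.59 and was not called (adjusted p = 0.119, and 0.0682 without). In the mean of immunoproteasome and antigen presentation genes, control replicate 3 stood apart at 9.72, beside 8.84 to 8.99 in the other controls. The proteasome count was 5, 6, and 7 without control replicate 1, 2, or 3 and 8, 6, and 7 without treated replicate 1, 2, or 5. Among 76 mitochondrial ribosomal proteins 16 rose and 0 fell (29 and 0 without the doubted arrays), while 7.53% of all genes tested rose (13.8% without). That count was 5, 6, and 9 without control replicate 1, 2, or 3, 27 without control replicate 5, and 9, 7, and 9 without treated replicate 1, 2, or 5. Of 32 subunits of respiratory complex I 1 rose and 0 fell (3 and 0), and of 36 of complexes III to V 0 rose and 0 fell (0 and 1). Hspb1, a small heat shock protein, rose by 1.70 (1.83 without the doubted arrays), and 7 of 38 cytosolic and mitochondrial chaperones rose in all (12 without), with 1 or 2 when control replicate 1, 2, or 3 or treated replicate 1, 2, or 5 was left out.

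Markers of other liver cells were read beside these groups. Of 19 Kupffer cell markers 0 were called with all arrays (median -0.30) and 1 was lower without the doubted ones. The mean per array was 7.73 to 8.88 in the controls and 7.48 to 8.19 in the treated mice. Control replicate 3 was the highest at 8.88, beside 7.73 to 8.23 in the other controls. Of 10 lymphocyte markers 0 were called with all arrays (median -0.24) and 1 was lower without the doubted ones, and control replicate 3 stood apart at a mean of 7.60, beside 6.23 to 6.41 in the other controls and 5.98 to 6.23 in the treated mice. Among 17 endothelial markers 0 were called with all arrays and 8 were lower without the doubted ones (medians -0.10 and -0.22). Of 16 stellate cell markers Dcn, decorin, was the 1 called, at -0.66 (-0.85), whereas 5 were lower and 1 higher without the doubted arrays. Of 11 hepatocyte markers 3 fell (Hnf4a, Cps1, and Tat) and 0 rose, with a median of -0.14 and means of 13.16 to 13.25 in the controls and 12.97 to 13.10 in the treated mice. For Hnf4a 1 of 4 probe sets was called, and the other 3 changed by -0.38 to 0.01. Hnf4a lost its call without control replicate 1, 2, or 3 or treated replicate 1, 2, or 5 (adjusted p up to 0.0939). Tat lost it without any 1 array other than control replicate 2 and treated replicates 3 and 5 (adjusted p up to 0.109) and without the doubted arrays (-0.39, adjusted p = 0.0939). Without those arrays 3 hepatocyte markers were again lower, 2 of them among those called with all arrays. Of 5 neutrophil markers 0 were called with all arrays and 1 was higher without the doubted ones, 0 of 2 erythroid markers were called either way, and of 4 adipocyte markers Fabp4 rose (0.71, and 0.81 without). The part of these markers in the other results was not tested.

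**Figure D4:**
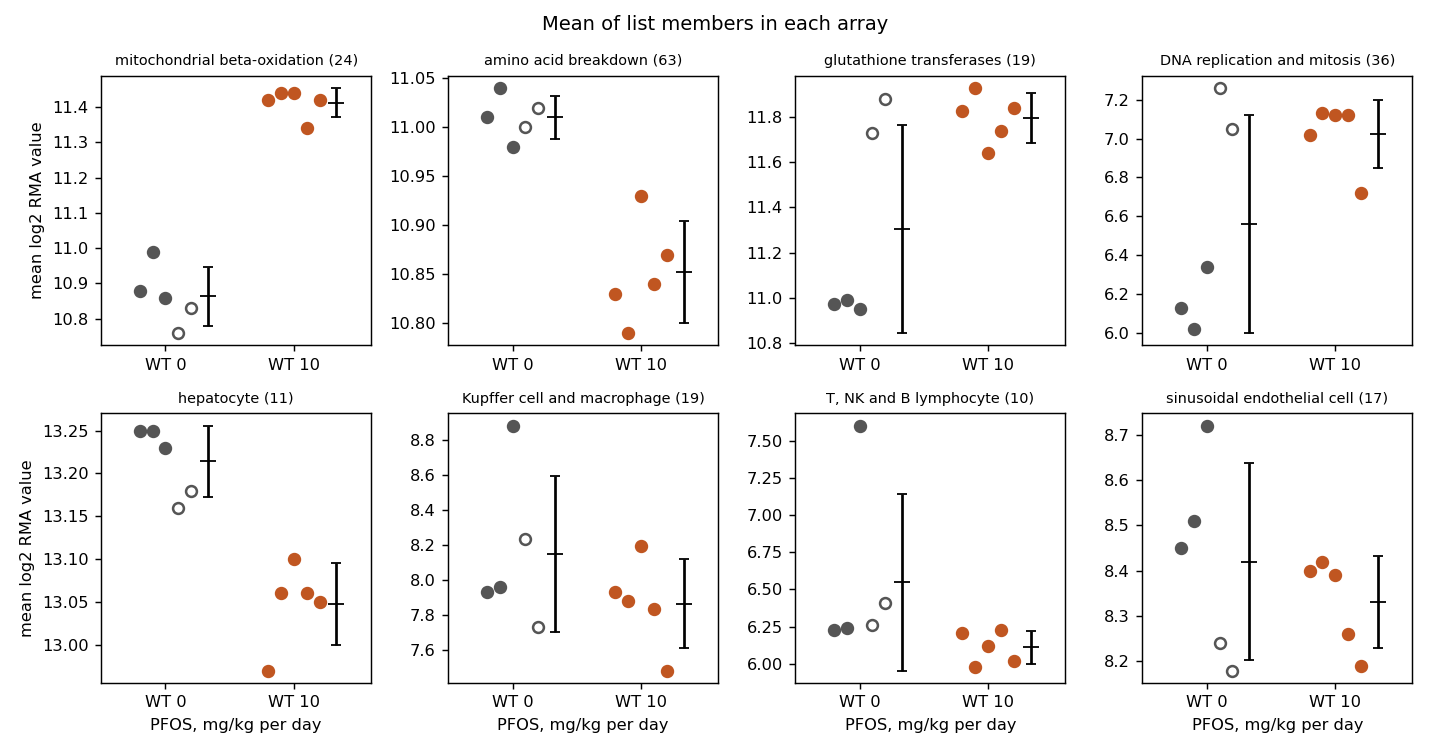
Mean log2 RMA value of the measured members of 8 gene lists in each WT array, at 0 and 10 mg/kg PFOS, with members in brackets. Filled gray points are control replicates 1 to 3, open points control replicates 4 and 5, and orange points treated arrays, with mean and SD (n = 5). The means of mitochondrial β-oxidation separate by dose (10.76 to 10.99 against 11.34 to 11.44), while 1 control stands apart at 7.60 for lymphocyte markers.

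The same change was read in Null mice, which have their own 5 arrays at each dose. In these, 503 genes (4.14%) rose and 603 (4.96%) fell at 10 mg/kg. The response was compared between genotypes for 68 measured genes, made up of 24 leading genes and a set of well-known liver genes. The leading genes are the 12 largest rises and 12 largest falls without overlap between groups, called with and without the doubted arrays. The response differed for 19 of the 68, beside 3.78% of all genes tested, and for 24 without the doubted arrays, beside 5.22%. The 24 leading genes were picked from these same WT arrays, so nothing is read from this share or from the direction of the differences. Cyp4a31 changed by 0.66 in Null mice (adjusted p = 0.0897) and by 4.84 in WT, a difference of -4.18 (adjusted p = 8.68e-09). Vnn1 and Mogat1 changed by -0.00366 and 0.0922 in Null mice, and both differed from WT (adjusted p = 1.89e-05 and 9.35e-07). Got1, which fell in WT, changed by 0.36 in Null mice (difference 1.59, adjusted p = 0.00138).

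Some genes moved in both genotypes. Cd36 rose in Null mice too, by 0.81 (adjusted p = 0.009), less than in WT (difference -1.48, adjusted p = 0.00824). Cyp2b10 rose by 4.33 in Null mice, beside 2.57 in WT with all arrays and 4.42 without the doubted ones. The last value follows from doubting those arrays by Cyp2b10, so nothing is read from it. The difference between genotypes was not called (adjusted p = 0.392). Cyp39a1, an oxysterol hydroxylase, changed by -1.76 in Null mice and -1.59 in WT (-1.93 without, adjusted p of the difference 0.912), the latter not called without control replicate 1 or 2 or treated replicate 1 or 5 (adjusted p up to 0.0555). By list, 2 of the 24 mitochondrial β-oxidation genes rose in Null mice, beside 19 in WT (18 without). Of the lists for respiratory complex I and complexes III to V, 21 of 32 and 19 of 36 genes fell in Null mice, beside 0 of each in WT (0 and 1 without). These list counts were not tested against each other. Without the doubted arrays the difference for Lrtm1, a leucine-rich repeat gene that fell in WT by 1.65, was no longer called (adjusted p = 0.0326 and 0.0964).

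**Figure D5:**
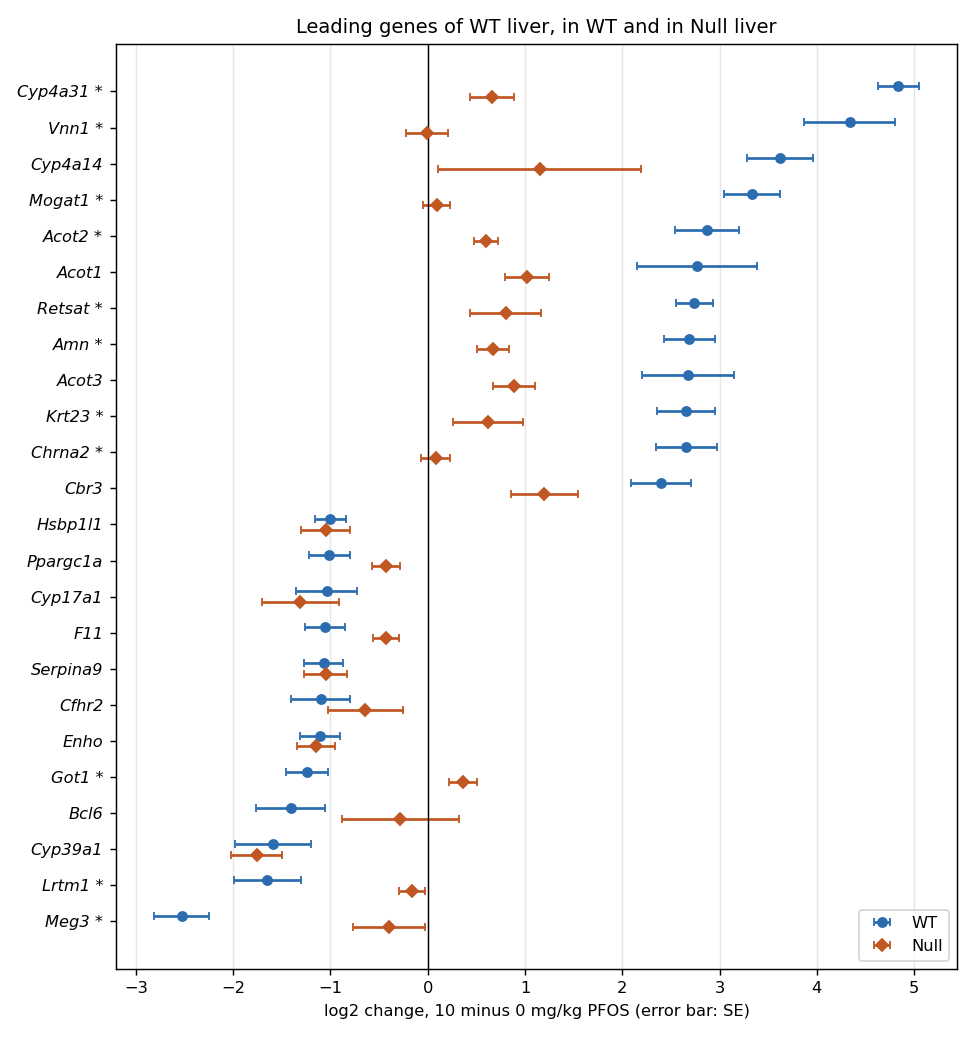
Change at 10 against 0 mg/kg PFOS in WT liver (blue circles) and in Null liver (orange diamonds) for 24 genes, on the log2 scale with SE as error bar (n = 5 per group). The genes are the 12 largest rises and 12 largest falls in WT without overlap between groups, called with and without the doubted arrays. An asterisk marks a called difference between genotypes, as for Cyp4a31 (4.84 in WT and 0.66 in Null) but not for Cyp39a1 (-1.59 and -1.76).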

How the data were processed

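Liver RNA of WT and Null mice given 0, 3, or 10 mg/kg PFOS was measured on 30 arrays, 5 per group, and groups and replicate numbers were taken from the sample labels. The authors ran RMA, which corrects background, equalizes the distributions of arrays by quantiles, and summarizes probes, and they deposited log2 values for 45101 probe sets. Array signals level off at high expression, so that changes of genes near the top of the scale can be understated. Columns of samples outside the series numbered 0. The study labeled and hybridized its samples as a single block, and no batch was tested.

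Of these, 64 controls were removed, and 24069 probe sets passed a filter that asked for a value over 5.65, the median of the table, on 5 or more of the 30 arrays. A gene could pass through one group alone. A probe annotation table named 34958 probe sets with 1 gene, 932 with several, and 9211 with none, and symbols were updated through Entrez numbers. A gene with several took the one with the strongest evidence of a dose effect (smallest p), and 0 of the 123 named genes with several probe sets had probe sets called in opposite directions. For some of these genes other probe sets were not called. Genes without a probe set of their own in that table are not analysed here.

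WT doses were compared by lmFit and eBayes of limma 3.58.1 (R 4.3.3) across the 15 WT arrays, and responses of the genotypes across all 30. Adjustment of p followed Benjamini-Hochberg over the 24069 probe sets, with calls under 0.05, and p-values measure the spread between mice of a group. Which mice shared a cage is not given, so an effect of cage, if cages followed dose, cannot be told apart from dose. The members, the gene lists, and the genes to name were chosen with earlier results of these data known. The genes named are the 12 largest rises and 12 largest falls whose groups did not overlap and that were called with and without control replicates 4 and 5, a set of well-known liver genes, and the called members of each list with the largest changes, along with lists described by their counts. Alternatives were another filter, probe set rule, normalization, fit, or test, the replicate number as a block, and leaving out arrays. The number of arrays limits the precision. Plotting used matplotlib 3.10.9 (Python 3.11.15).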

Additional observations from a re-analysis of the deposited data

Results flagged for a closer look

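Single arrays far from the other 4 of their group were found in 8 of 136 groups of named genes, by a rule that chance meets in about 1 in 20 groups. In the treated mice these were replicate 2 for Cfhr2 (8.25) and Cyp7a1 (7.40), replicate 3 for Gstm3 (13.72), replicate 1 for Hamp (12.49), and replicate 4 for Meg3 (3.68). Among the controls they were replicate 2 for Got1 (12.10) and replicate 1 for Meg3 (4.60) and Ppargc1a (7.09). Cfhr2, a complement regulator, changed by -1.10, and by -0.70 without treated replicate 2. It lost its call without control replicate 1, 2, or 3 or treated replicate 1 (adjusted p in limma up to 0.08), and its other probe set was not called (-0.29).

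A different response in Null and WT mice was found for 19 named genes, given here as the Null change minus the WT change on the log2 scale. It was negative for Cyp4a31 (-4.18), Vnn1 (-4.35), Mogat1 (-3.24), Chrna2 (-2.58), Acot2 (-2.27), Krt23 (-2.04), Amn (-2.01), Retsat (-1.94), Pdk4 (-1.73), Ehhadh (-1.51), Cd36 (-1.48), Plin2 (-0.93), and Fabp1 (-0.44), all of which rose in WT. It was positive for Meg3 (2.12), Got1 (1.59), Lrtm1 (1.49), Tat (0.96), C8b (0.71), and Cps1 (0.32), which fell in WT. Some of these genes were picked by their change in the same WT arrays, so nothing is read from the direction of the differences. Adjusted p in limma ran from 8.68e-09 for Cyp4a31 to 0.0326 for Lrtm1.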

How the results depend on the processing

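The direction of 203 of the 205 called named genes held in every alternative run, the exceptions being Hnf4a (0.00899 without probe sets that can bind several transcripts) and Rps24 (0.035 with the highest-mean probe set). Numbers of genes higher and lower moved by more than 1.5 times with array weights (1386 and 1514), with the 10 compared arrays alone (505 and 277), without the 2 doubted arrays (1675 and 1733), and with a fold limit of 1.5 (267 and 154). The number lower alone moved with arrays shifted to the same median (430), the methods' t-test at its unadjusted limit of 0.0025 (337) and after Benjamini-Hochberg (427), and limma at that limit (436). With 1 of the 15 WT arrays left out, 493 to 1205 genes were higher and 263 to 1194 lower. The number of named genes that differed between genotypes stayed within 1.5 times of 19 in all alternatives run. The cause of these moves was not tested, beyond the fewer arrays and stricter limits that some of them set.

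Genes not called turned in sign as follows. Cyp7a1 gave -0.16 with the highest-mean probe set, Socs2 -0.19 with the same, Saa1 -0.0615 with array weights, Fgf21 -0.0817 and Ppara -0.21 without the doubted arrays, and Per2 0.0224 with shifted medians, 0.0283 with repeated quantile normalization, and 0.0209 without the doubted arrays. The doubted arrays were picked in part by Ppara itself, so its turn in sign follows from that choice. With 1 array left out the changes ran from -0.59 to 0.47 for Cyp7a1, -1.12 to 0.26 for Dio1, -0.0734 to 0.0745 for Per2, and -0.73 to 0.64 for Saa1.

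Deviations of same-numbered control and treated arrays correlated at 0.052, 0.00592, 0.201, -0.101, and 0.295. Those of control and treated arrays with different numbers correlated at -0.314 to 0.233. The ranges overlapped, so these values do not settle whether the replicate numbers pair the arrays. With the replicate number as a block 697 genes were higher and 547 lower.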
